A study of Homo sapiens with 4 samples.

Results

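TARDBP, EWSR1 and TAF15 encode RNA-binding proteins, and their poly(A) sites (PASs) were mapped by PAS-seq, a method that sequences the 3′ ends of polyadenylated RNA, in 4 libraries of 2 human esophageal squamous cell carcinoma (ESCC) lines. The genes were taken by name, and their PAS clusters were chosen by 1 measured value, the dominant site, the single position with most tags, which had to lie within the span of that gene on the same strand in GENCODE release 44. This gave 5 of the 17627 clusters in the series and 3 of the 11275 genes with a cluster: 3 clusters for TARDBP, 1 for EWSR1 and 1 for TAF15. The position of a dominant site within its gene therefore follows from how the clusters were chosen, whereas levels and shares were not used to choose them.

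KYSE30 and TE-1 cells were each given 20 mM l-lactate for 24 h or PBS as the control, with 1 library per treatment in each line. The labels name no genetic change in any group. The cell line entries of the 2 control samples read KYSE32 and TE-3, against their titles and the study's methods, and the titles were used here. Both lines are long-term cultures, each a single line, so a difference between them is a difference between 2 cultures and cannot be told apart from any difference in how their libraries were made.

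TARDBP encodes the nuclear protein TDP-43, which binds UG-rich RNA, controls splicing and the choice of poly(A) sites, and holds down its own mRNA by binding within its own 3′ UTR. EWSR1 and TAF15 belong to the FET family, whose members join an RNA-binding domain to a long disordered region and couple transcription to RNA processing. All 3 proteins are known for forming condensates and, when mislocalised, for their links to neurodegenerative disease, and EWSR1 is also known from its gene fusions in Ewing sarcoma.

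The 30 bases that end at each dominant site are printed for the sites used by the 3 genes, because the comparisons between libraries come down to which of these ends was used. They are reference sequence from GRCh38, written 5′ to 3′ on the plus strand, on which all 3 genes lie, and each is named by its gene and the position of its last base. Capitals mark the poly(A) signal, AATAAA where present in the 50 nt upstream and otherwise ATTAAA. They lie, in order, at chr1:11024013-11024042, chr1:11024155-11024184, chr1:11025461-11025490, chr1:11030494-11030523, chr22:29300307-29300336, chr22:29300486-29300515 and chr17:35847205-35847234.
TARDBP 11024042: ggaaattcttaAATAAAactgatttaaata
TARDBP 11024184: ttgcttcaAATAAActtatttgaaaagttg
TARDBP 11025490: ccagataAATAAAatttttttttgacacca
TARDBP 11030523: gtgttgacttgttaaATTAAAccatttgga
EWSR1 29300336: tgaagaaacATTAAAacaagttaaatggta
EWSR1 29300515: tttttttttaAATAAAattccaaatgttta
TAF15 35847234: actgcAATAAAggctgcttgtttttgtgga

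Every one of these 7 sites had a signal that ended 9 to 19 nt before it. The canonical AATAAA stood before 5 of them, and the variant ATTAAA before the last TARDBP site and the upstream EWSR1 site. Over the 17621 clusters of the series that could be placed on the genome, 66.4% had AATAAA in the 50 nt upstream, 16.7% had only ATTAAA and 16.9% had neither. None of the 7 sites lay before an A-rich stretch, meaning 12 or more A in the next 20 bases, which 0.970% of clusters did. The motif TGTA, searched on the transcript strand in the 100 nt upstream, was found before the last TARDBP site, both EWSR1 sites and the TAF15 site, and 57.0% of all clusters had it. TGTGTG, the repeat that TDP-43 prefers, was searched on the same strand in the 50 nt downstream and was present at 7.21% of all clusters. It began 7 nt past the last TARDBP site and 39 nt past the downstream EWSR1 site. Outside that window, TARDBP also held TGTGTG at 785, 1117, 3282 and 3289 nt past its canonical stop codon. Those at 785 and 1117 nt lay upstream of all the TARDBP sites printed above. These matches are a description of the sequence, and whether any factor bound there was not measured.

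TARDBP (ENSG00000120948.19, chr1:11012344-11030528, plus strand) had the 3 clusters at chr1:11024042-11024194, at the single base chr1:11025490 and at chr1:11030523-11030532, called proximal, middle and far here. Its canonical transcript, TARDBP-201, ends in exon 6 of 6 (chr1:11022124-11025492), with a 3′ UTR of 2838 nt. In the proximal cluster the dominant site lay 1388 or 1530 nt past the stop codon, depending on the library, and the middle site lay 2836 nt past it, 2 nt before the annotated end. Of the annotated transcripts that end within 24 nt, targets of nonsense-mediated decay make up 1 of 2 at 11024042 and 4 of 5 at 11024184. They make up 0 of 3 at the middle site. The far site lay outside the canonical transcript, 5031 nt beyond its end, where 5 annotated transcripts end within 24 nt, 1 of them protein-coding and 1 a target of nonsense-mediated decay. In 3 of these, TARDBP-217, TARDBP-221 and TARDBP-227, the last exon begins at 11030179 and is joined by splicing to an exon that ends at 11025208. MASP2 overlaps TARDBP on the opposite strand, and the clusters used here carry their strand.

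TARDBP was higher in KYSE30 than in TE-1 cells. Its level, the sum of its clusters in RPM (tags relative to all tags sequenced in that library), was 42.4 RPM in KYSE30 control, 45.7 RPM in KYSE30 l-lactate, 13.8 RPM in TE-1 control and 15.4 RPM in TE-1 l-lactate cells. Both KYSE30 libraries stood above both TE-1 libraries, and the tags behind these values ranged from 130 to 328. In limma on log2(RPM + 1), TE-1 minus KYSE30 was −1.56 between controls and −1.51 between l-lactate libraries, with a mean of −1.54 ± 0.10 (SE, n = 2 treatments, adjusted p = 0.000469), a 2.90-fold difference on that scale. This sum takes the middle cluster as 0 in TE-1, where it was not listed. With only the clusters listed in all 4 libraries, which leaves the middle cluster out, the mean was −1.37. Differences between the lines were common. Of the 9136 genes tested, 68.2% differed between the lines by this test, 34.0% were lower in TE-1, and 15.1% were lower by at least 1 log2 unit in both treatments.

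**Figure D1:**
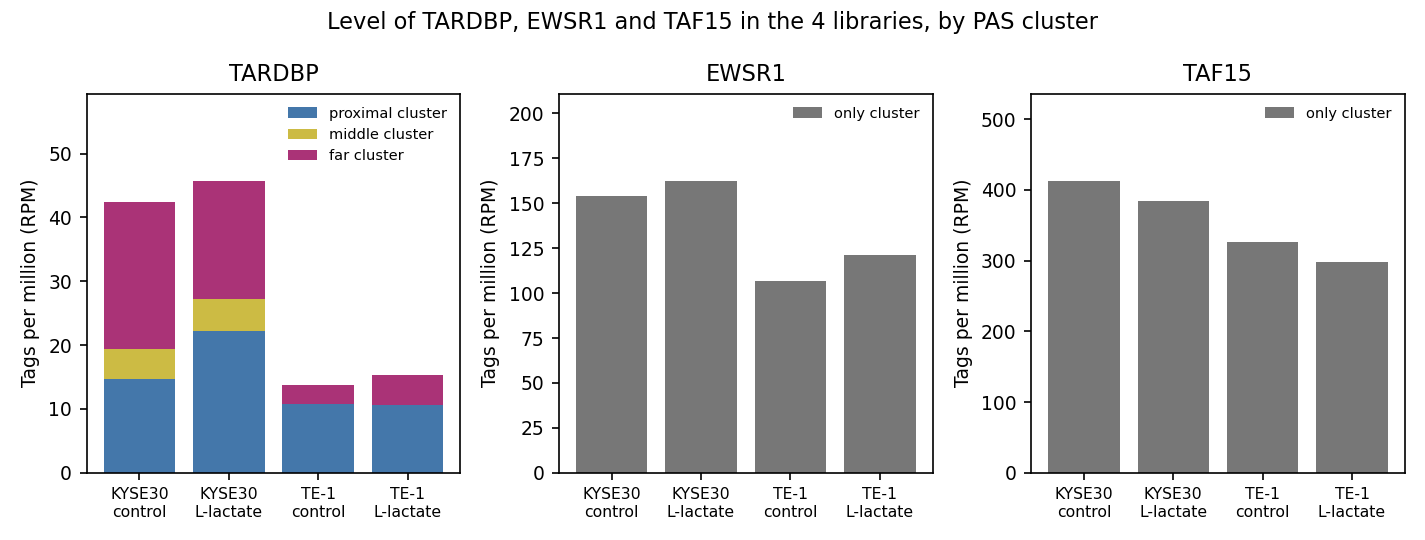
Level of TARDBP, EWSR1 and TAF15 in RPM (vertical axis from 0) in each of the 4 libraries, 1 bar per library, with the TARDBP bars split by cluster. The KYSE30 bars stand above the TE-1 bars for each gene, and 34.0% of the 9136 genes tested were lower in TE-1 by limma. The share of all genes whose lines do not overlap was not counted. Of the TARDBP clusters the far one differs most, at 23.0 and 18.5 RPM in KYSE30 against 2.98 and 4.72 RPM in TE-1.

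The line difference in TARDBP was uneven over its clusters. The far cluster had 23.0, 18.5, 2.98 and 4.72 RPM in KYSE30 control, KYSE30 l-lactate, TE-1 control and TE-1 l-lactate cells, so that KYSE30 exceeded TE-1 by 7.72-fold in the controls and 3.92-fold with l-lactate. The proximal cluster had 14.7, 22.2, 10.8 and 10.6 RPM in the same order, and the corresponding ratios were 1.36 and 2.09. The middle cluster, the end of the canonical transcript, had 4.71 and 5.02 RPM in KYSE30 cells and was not listed in either TE-1 library.

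As a share of TARDBP tags, the proximal cluster held 34.6% in KYSE30 control cells (95% Wilson interval 29.6 to 40.0) and 48.5% (43.1 to 53.9) in KYSE30 l-lactate cells. It held 78.3% (70.9 to 84.3) in TE-1 control and 69.2% (60.8 to 76.5) in TE-1 l-lactate cells, so neither TE-1 interval overlapped a KYSE30 interval. The far cluster held 54.3% (48.8 to 59.7), 40.5% (35.4 to 45.9), 21.7% (15.7 to 29.1) and 30.8% (23.5 to 39.2) in the same library order. It was the leading TARDBP cluster only in KYSE30 control cells. These intervals cover counting error only, since tags without molecular identifiers are not independent molecules.

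**Figure D2:**
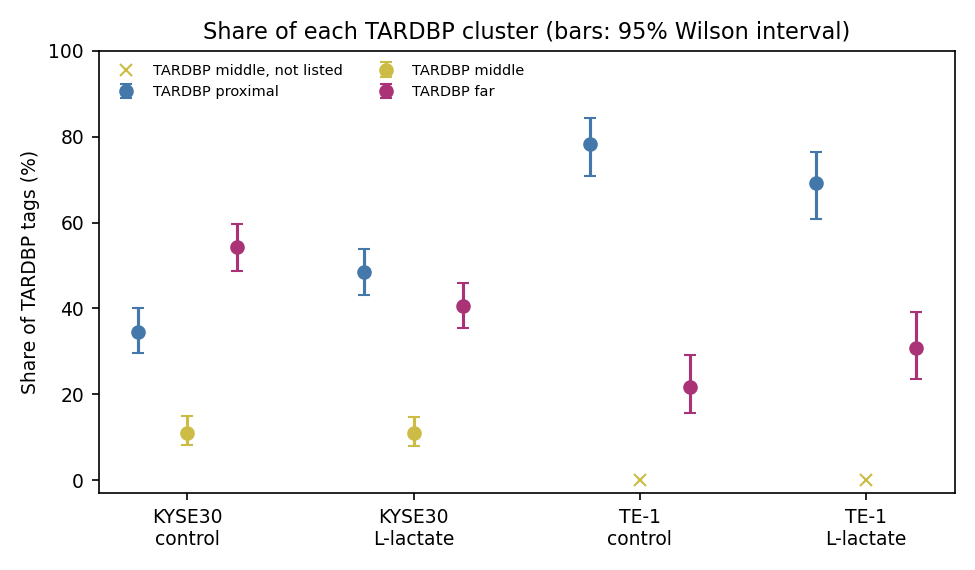
Share of TARDBP tags in each of its clusters (vertical axis, %), by library, with 95% Wilson intervals as bars and a cross at 0 where the middle cluster was not listed. The proximal share is 34.6% and 48.5% in KYSE30 and 78.3% and 69.2% in TE-1, and the far share is highest in KYSE30 control cells at 54.3%.

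Between the lines, the proximal share was 43.7 percentage points higher in TE-1 among controls (95% Newcombe interval 34.5 to 51.5) and 20.8 points higher among l-lactate libraries (10.8 to 29.8). Differences of at least 10 points were found in 32.0% of clusters between the controls and 31.9% between the l-lactate libraries. On log2 odds of the share, limma gave a TE-1 minus KYSE30 difference of 2.44 in controls and 1.11 with l-lactate, with a mean of 1.77 ± 0.39 (SE, n = 2 treatments, adjusted p = 0.0429). At that threshold 29.7% of the 5553 clusters tested differed between the lines, and 14.8% of the 5553 had a higher share in TE-1. The call for the proximal cluster was lost with a pseudocount of 0.1 RPM (1.99, adjusted p = 0.110) or with clusters from 1 RPM admitted (1.77, adjusted p = 0.114). The far share differed by −32.6 points among controls (−40.7 to −23.3), and differed by −9.78 points with l-lactate, with an interval (−18.8 to 0.0782) that includes 0. In log2 odds these were −1.80 and −0.49, with a mean of −1.15 ± 0.39 (SE, n = 2 treatments), which did not pass the test (limma adjusted p = 0.0975). It passed with a 10 RPM minimum (−1.48, limma adjusted p = 0.000633) or with only the clusters listed in all 4 libraries (−1.48, limma adjusted p = 2.03e-08). Both settings left only the proximal and far clusters, so these are the proximal values (1.48) with the sign reversed. With only the clusters listed in all 4 libraries, limma used the same error for every cluster, in place of the spread of each.

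The middle cluster held 11.1% of TARDBP tags in KYSE30 control (8.10 to 15.1) and 10.97% in KYSE30 l-lactate cells (8.03 to 14.8). Its absence from TE-1 cannot be read as a difference in use. Clusters of a single base were listed in these libraries only from 3.07 to 3.10 RPM upward, and at its KYSE30 share the middle cluster would have stood at 1.53 and 1.68 RPM in TE-1 cells. Its line difference in log2 odds was −1.18 ± 0.20 (SE, n = 2 treatments, limma adjusted p = 0.0240), and it turned to 0.20 (adjusted p = 0.339) with a pseudocount of 5 RPM. Without the middle cluster, the proximal share was 38.9% and 54.5% in KYSE30 control and l-lactate cells, and the TE-1 excess was 39.4 points (29.9 to 47.5) in controls and 14.8 points (4.68 to 24.1) with l-lactate.

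With l-lactate, the level of TARDBP differed by 0.11 in KYSE30 and 0.15 in TE-1 cells on the log2(RPM + 1) scale, with a mean of 0.13 ± 0.10 (SE, n = 2 lines, limma adjusted p = 0.781). No gene passed this test (0.0% of 9136), and 674 genes had an unadjusted p under 0.05. The shares moved in opposite directions in the 2 lines. The proximal share was 13.9 points higher with l-lactate in KYSE30 (6.26 to 21.3) and lower in TE-1, with a difference of −9.09 points (−19.4 to 1.33). The far share differed by −13.7 points in KYSE30 (−21.2 to −6.02) and by 9.09 points in TE-1 (−1.33 to 19.4).

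Both KYSE30 intervals lay to 1 side of 0 and both TE-1 intervals included it. Over both lines the log2 odds of the proximal share differed by 0.12 ± 0.39 (SE, n = 2 lines, limma adjusted p = 0.901) and of the far share by −0.11 ± 0.39 (adjusted p = 0.909). No cluster passed (0.0% of 5553), and 503 had an unadjusted p under 0.05. A share change of at least 10 points was seen in 10.3% of clusters in KYSE30 and 11.9% in TE-1, and 2.97% moved by at least 5 points in opposite directions in the 2 lines and 10.5% in the same direction. Whether the effect of l-lactate on TARDBP differed between the lines could not be tested with 1 library per treatment in each.

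EWSR1 (ENSG00000182944.18, chr22:29268009-29300525, plus strand) had 1 cluster, chr22:29300334-29300525. It begins in the last exon, 17 of 17 (chr22:29300122-29300521), of the canonical transcript and ends just past it. The dominant site of this cluster lay 175 or 354 nt past the stop codon, depending on the library, in a 3′ UTR of 360 nt. The level was 153.9 RPM in KYSE30 control, 162.4 RPM in KYSE30 l-lactate, 106.5 RPM in TE-1 control and 121.1 RPM in TE-1 l-lactate cells. TE-1 minus KYSE30 was −0.47 ± 0.11 on the log2 scale (SE, n = 2 treatments, limma adjusted p = 0.0164), a 1.39-fold lower level in TE-1. With l-lactate the difference was 0.08 in KYSE30 and 0.18 in TE-1, with a mean of 0.13 ± 0.11 (SE, n = 2 lines, limma adjusted p = 0.780). TARDBP and EWSR1 were thus among the 30.4% of genes with a higher value in both lines, and neither difference passed the test.

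TAF15 (ENSG00000270647.7, chr17:35809482-35864615, plus strand) had 1 narrow cluster, chr17:35847232-35847242, at the end of exon 16 of 16 (chr17:35846906-35847242) of the canonical transcript, whose 3′ UTR is 297 nt. Its level, highest of the 3 genes, was 412.4, 383.7, 326.0 and 298.5 RPM in KYSE30 control, KYSE30 l-lactate, TE-1 control and TE-1 l-lactate cells. TE-1 minus KYSE30 was −0.35 ± 0.10 (SE, n = 2 treatments, limma adjusted p = 0.0372), a 1.27-fold lower level in TE-1, and the call was lost when genes of all levels were tested (adjusted p = 0.0661). With l-lactate the difference was −0.10 in KYSE30 and −0.13 in TE-1, with a mean of −0.12 ± 0.10 (SE, n = 2 lines, limma adjusted p = 0.791), and 21.9% of genes were lower in both lines.

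**Figure D3:**
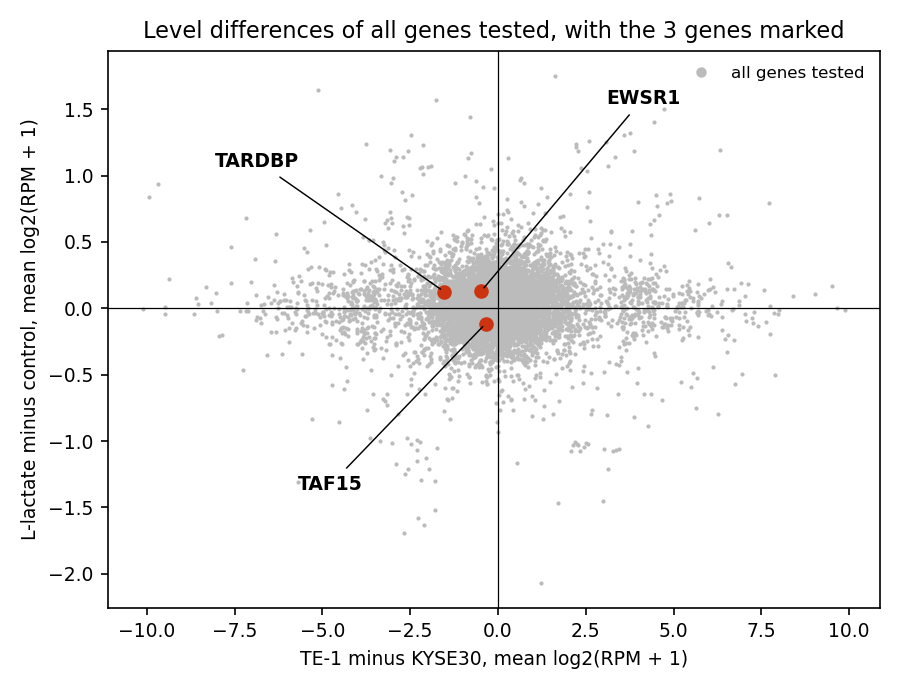
Mean TE-1 minus KYSE30 difference (horizontal axis) against mean l-lactate minus control difference (vertical axis), both in log2(RPM + 1), for the 9136 genes tested (grey), with the 3 genes in red. TARDBP, EWSR1 and TAF15 lie left of 0 at −1.54, −0.47 and −0.35, and within 0.13 of 0 on the l-lactate axis.

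PAS-seq counts 1 tag per 3′ end, so RPM needs no correction for transcript length and the order of the genes, TAF15 above EWSR1 above TARDBP, held in all 4 libraries without overlap. Their mean RPM stood at the 96.0, 87.3 and 48.9 percentiles of the genes tested. In bulk samples such as these, fewer expressing cells and less RNA per cell cannot be told apart.

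A cluster can join several separate sites, since the authors merged nearby clusters, and the deposited values name only its dominant site and the share of that site. In the proximal TARDBP cluster the dominant site was 11024042 in KYSE30 control cells, with 29 of 109 tags (26.6%, 19.2 to 35.6), and 11024184 in KYSE30 l-lactate cells, with 53 of 159 tags (33.3%, 26.5 to 41.0), 142 nt downstream. It was 11024042 in both TE-1 libraries, with 38.4% and 41.1% of the tags. Both sites had AATAAA, as printed at the outset, and the 0.1 and 0.9 quantile positions of the cluster moved by 0 nt between treatments in KYSE30 and by at most 1 nt in TE-1. In KYSE30 these positions were the ends of the cluster, so a change in use between its sites need not move them.

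The share of 11024184 in KYSE30 control cells could be at most the 26.6% of the dominant site there, so its difference with l-lactate was at least 6.73 points, with an interval on that bound (−4.58 to 17.4) that includes 0. This smallest possible difference was within counting error at this depth. The actual difference cannot be told, since the share of 11024184 in KYSE30 control cells is not given. At 11024042, TE-1 control cells exceeded KYSE30 control cells by 11.8 points (−0.570 to 23.6), which also includes 0.

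EWSR1 showed the same kind of change in the same line and in the other direction along the transcript. Its dominant site was 29300515, 354 nt past the stop codon, in KYSE30 control cells (362 of 1143 tags, 31.7%, 29.0 to 34.4) and 29300336, 175 nt past it, in KYSE30 l-lactate cells (380 of 1165 tags, 32.6%, 29.99 to 35.4). The site nearer the stop codon, with the ATTAAA signal, was dominant in both TE-1 libraries, with 42.3% and 44.7% of the tags. In KYSE30 the share of 29300336 was higher with l-lactate by at least 0.947 points (−2.86 to 4.75 on that bound). That smallest possible difference was within counting error, and the actual difference cannot be told.

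The line difference at 29300336 was larger than counting error with each tag taken as independent. TE-1 l-lactate cells exceeded KYSE30 l-lactate cells by 12.1 points (8.04 to 16.2), and TE-1 control cells exceeded KYSE30 control cells by at least 10.6 points (6.62 to 14.5 on that bound). A difference of at least 10 points at a shared dominant site was found in 8.34% of clusters between the l-lactate libraries and 7.75% between the controls. EWSR1 is not among the clusters behind the 7.75%, since its dominant site differed between the controls. Both percentages were taken over clusters of every width, and in a cluster of a single base the share of the dominant site cannot change. The dominant site lay more than 24 nt apart in 2.06% of clusters between the controls, as it did for EWSR1, and in 1.96% between the l-lactate libraries, as it did for the proximal TARDBP cluster. These last shares were taken over clusters of every width, also those too narrow for such a distance. No spread between cultures stands behind these values, and no test over libraries was made on them.

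**Figure D4:**
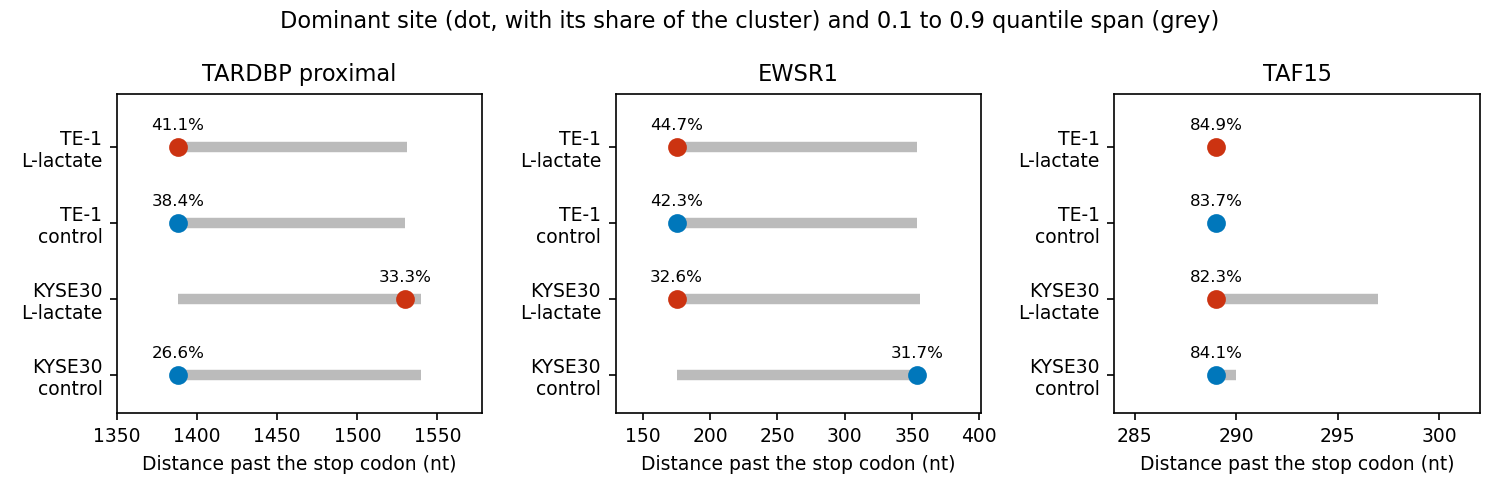
Position of the dominant site (dot, with its share of the tags of its cluster) and the 0.1 to 0.9 quantile span (grey) in nt past the stop codon, by library, for the proximal TARDBP cluster, EWSR1 and TAF15. The dot moves between the KYSE30 libraries by 142 nt in TARDBP and by 179 nt in EWSR1, and stays in place in TAF15 and in all TE-1 pairs.

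TAF15 and the far TARDBP cluster kept 1 dominant site in all 4 libraries. The TAF15 site 35847234, 289 nt past the stop codon, held 84.1, 82.3, 83.7 and 84.9% of the tags in KYSE30 control, KYSE30 l-lactate, TE-1 control and TE-1 l-lactate cells, and the far site 11030523 held 96.5, 94.0, 96.8 and 87.5%. Among clusters above 5 RPM in both libraries of a line, 2 of the 4 clusters of these genes changed dominant site by more than 24 nt in KYSE30 and 0 of 3 in TE-1. Over the series 1.43% of clusters above 5 RPM did so in KYSE30 and 1.24% in TE-1. These shares were taken over clusters of every width, and a cluster of 24 nt or less cannot change in this way. The 2 clusters that changed were wide (chr1:11024042-11024194 and chr22:29300334-29300525), so their count and these shares are not like for like.

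Of 30 other RNA-binding and transport genes that work with these proteins, all were tested. With l-lactate none passed, 15 of the 30 were higher and 7 lower in both lines, against 30.4% and 21.9% of all genes, and the median difference was 0.06 against 0.02 over all genes. Among the largest mean differences were those of G3BP1, a stress granule scaffold (0.29), and ELAVL1, which binds AU-rich elements (0.25), and at the other end UBQLN2, a ubiquitin-binding shuttle protein (−0.19), HNRNPC, an hnRNP core protein (−0.11), and TIA1, a stress granule protein (−0.10). None of these passed limma's test.

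Between the lines, 13 of the 30 genes were higher and 4 lower in TE-1, with a median of 0.22 against 0.00172 over all genes, where 34.1% of genes were higher and 34.0% lower. KPNB1, an import receptor, was lower in TE-1 (−1.71), as were PABPC1, the cytoplasmic poly(A)-binding protein (−0.84), and TIA1 (−0.52). UBQLN2 (1.54), TNPO1 (1.33), the import receptor of the FET proteins, and DDX3X (1.17), an RNA helicase, were higher.

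A further list held 24 transcripts known to depend on TDP-43 for splicing or stability in other cells, of which 18 had a cluster and 15 were tested. None passed for l-lactate, 5 of the 15 were higher and 4 lower in both lines, against the same 30.4% and 21.9%, and the median was −0.02 against 0.02 over all genes. The largest values were those of SLC38A2, an amino acid transporter (0.34), POLDIP3 (0.14) and RANGAP1 (0.09) above 0, and CDK6 (−0.22), ATG4B (−0.18) and ELK1 (−0.18) below it. Between the lines 7 of the 15 were higher in TE-1 and 6 lower, against 34.1% and 34.0% of all genes, with a median of 0.22 against 0.00172 over all genes, the highest including ELK1 and UNC13B (1.60 and 1.13) and the lowest TMEM106B, SLC38A2 and CHMP2B (−0.67, −0.65 and −0.62).

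Genes with the profile nearest to each of the 3 were found by Euclidean distance between centred log2(RPM + 1) values over the 4 libraries, among 5810 genes of at least 20 RPM. For TARDBP they included STK40 (0.0311) and PYGB (0.0374). For EWSR1 they were TMED2, NCBP2 and CTBP2, at 0.0261 to 0.0329, and for TAF15 TRAF4, ARHGEF5 and ASNS, at 0.0222 to 0.0290. With 4 points per gene, such distances are a description.

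The libraries held 7174991 to 10393799 tags, of which 92.5 to 93.1% lay in listed clusters, and each listed 14810 to 15048 clusters. Of 13 epithelial and squamous markers, 8 were listed in each KYSE30 library and 5 and 7 in TE-1 control and l-lactate cells, with summed levels of 5290 and 5376 RPM against 1711 and 1668 RPM. KRT5, KRT14, TP63 and DSG3, markers of squamous epithelium, were not listed in any of the 4 libraries. Other squamous markers were listed, SOX2 (168 and 219.9 RPM) and KRT6A (20.3 and 40.4 RPM) in KYSE30 only, KRT17 (245 and 187 RPM) in TE-1 only, and DSP from 180.1 to 306 RPM in all 4. Of 9 markers of leukocytes, endothelium and stroma, 2 were listed per library, summing to 9.90 to 20.1 RPM, with PTPRC, CD3E, PECAM1, VWF, COL1A2 and COL3A1 not listed in any. The epithelial marker sum was lower in TE-1, as TARDBP was, but not every marker was. The largest values in KYSE30 were those of KRT8 (2154 and 2229 RPM, against 1004 and 969 RPM in TE-1) and KRT19 (1699 and 1574 RPM, against 0 and 2.95 RPM). KRT6A, KRT18, SOX2, CDH1 and EPCAM were also lower in TE-1, and KRT17 and DSP were higher. The part of these markers in the line differences was not tested.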

How the data were processed

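Tables of PAS clusters for 4 libraries were used. The authors, per the paper's methods, trimmed reads, aligned them to GRCh38 (p14 per the submitters' processing notes) with HISAT2 and built clusters with CAGEr, dropping low sites and joining sites within 24 nt. Nearby clusters detected in all samples were then joined further, so a cluster can hold separate sites more than 24 nt apart. The deposited values are RPM, the tags of a cluster over all tags of its library, with no length correction. Positions are given 1-based, although the deposited starts are 0-based. Whole tags were worked out from the RPM steps, and 100% of values fell within 0.05 tag of a whole number. The lowest listed value was 1.06 to 1.12 RPM.

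Clusters were joined by their identifier, and an unlisted cluster was taken as 0. Gene levels were tested as log2(RPM + 1) for genes with a mean of at least 5 RPM, and shares as log2 odds with a pseudocount of 1 RPM for clusters that reached 5 RPM in a library, in genes with at least 2 of them, with limma 3.58.1 in R 4.3.3 on treatment plus line and Benjamini-Hochberg adjustment over all genes or clusters. With 1 library per group, the lines are the only repeats of the l-lactate effect and the treatments of the line difference, so a fit has 1 residual degree of freedom, moderated over all features. Nothing in the labels says that the libraries came from repeated cultures, and p-values measure only the spread between these 4. Dominant sites had no test. Wilson and Newcombe intervals at 95% used SciPy 1.17.1 and counting error only, with each tag taken as independent. The members and lists were chosen with earlier results of these data known. Named besides the 3 genes are up to 3 list genes with the largest mean rise and fall per contrast and the 3 nearest profiles per gene. Some genes that this rule names are not reported here. The tests were tested on simulated data. Alternatives changed the pseudocount, minimum, scaling, cluster set and limma's prior.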

Additional observations from a re-analysis of the deposited data

Results flagged for a closer look

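The shares of the proximal and far TARDBP clusters stood out because their l-lactate minus control differences had opposite signs in KYSE30 and TE-1 cells. The proximal share differed by 13.9 points in KYSE30 and by −9.09 points in TE-1, and the far share by −13.7 points in KYSE30 and by 9.09 points in TE-1. The TE-1 interval of the proximal share (−19.4 to 1.33 points) included 0. The proximal and far values are largely the same measure, since only these clusters were listed in TE-1 and the middle share differed by −0.136 points in KYSE30. The difference between the lines was not tested, since each line has 1 library per treatment.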

How the results depend on the processing

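Counts that passed depended on the settings. Genes that differed in level with l-lactate went from 0 to 2 with a pseudocount of 5 RPM and with a mean-variance trend in limma, which was added after the data were seen. Clusters that differed in share with l-lactate went from 0 to 107 with a 10 RPM minimum and to 177 with only clusters listed in all 4 libraries, and those between the lines from 1649 to 1035 with a pseudocount of 0.1 RPM, 2520 with 5 RPM and 551 with a 1 RPM minimum.

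Of the 3 genes, the level differences kept their direction under all 8 alternatives, and between the lines adjusted p ran from 6.62e-07 to 0.00452 for TARDBP, from 0.000203 to 0.0399 for EWSR1 and from 0.000474 to 0.0661 for TAF15, the last with no filter on low genes (−0.35). The proximal share between the lines was 1.99 with a pseudocount of 0.1 RPM (adjusted p = 0.110) and 1.77 with a 1 RPM minimum (adjusted p = 0.114). The middle share was 0.20 with a pseudocount of 5 RPM and −1.18 with a 1 RPM minimum (adjusted p = 0.0769). The far share was −1.48 with a 10 RPM minimum (limma adjusted p = 0.000633) and −1.48 with clusters listed in all 4 libraries (limma adjusted p = 2.03e-08). Both settings dropped the middle cluster, so these are the proximal values with the sign reversed. Taken line by line, the l-lactate minus control difference ran from −0.54 to 0.79 for the proximal share and from −0.77 to 0.54 for the far share, in log2 odds. Clusters of the 3 genes that moved in KYSE30 went from 2 to 0 by the lower quantile, upper quantile or midpoint position. In both KYSE30 libraries the quantile positions of these 2 clusters lay at or near the cluster ends. A change in use between their sites need not move such positions, so the 0 is no check on the dominant sites. The cause of the change of dominant site was not tested. Count-based tests planned as alternatives were not run. The l-lactate and control libraries were paired by line in every fit, and the labels give no replicate numbers for any further pairing. At 130 to 328 TARDBP tags per library, share changes of several points lie within counting error.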
